A study of Mus musculus with 14 samples.

Results

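Chemokine transcripts that microglia and other myeloid cells make were examined in microglia sorted from the dorsal lumbar spinal cord of mice with or without inflammatory arthritis. The members were chosen by gene symbol from a list of 8 (Ccl2, Ccl3, Ccl4, Ccl7, Ccl9, Ccl12, Cxcl2 and Cxcl16), of which 7 were found among the 14329 genes measured, and Cxcl2 was not analysed here. Of these 7, 6 reached 10 reads in 7 or more of the 14 libraries, and Ccl7, which did not, was added to the genes tested.

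The mice were 6-month-old males and females, either C57BL/6 wild type (WT) or heterozygous TASTPM, a line with human amyloid precursor protein carrying the Swedish mutation and human presenilin-1 carrying the M146V mutation. A murine Thy-1 promoter drives each transgene in neurons, so the sorted cells are not those that make the human proteins by design. K/BxN serum transfer (K/BxN ST) induces passive arthritis by arthritogenic autoantibodies, and Control ST used pooled serum of KRN/C57 mice, both injected intraperitoneally as 100 µl on days 0 and 2, with cells taken on day 5. There were 4 WT K/BxN ST, 3 WT Control ST, 4 TASTPM K/BxN ST and 3 TASTPM Control ST libraries, each made from 2000 CD45low CD11b+ CX3CR1+ cells. Values are normalised counts, reads on a gene after division by the size factor of its library. Library numbers are those of the sample labels for TASTPM K/BxN ST, and only name the libraries in the other groups.

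Chemokines are small secreted proteins that attract leukocytes through G protein-coupled receptors. Ccl2, Ccl7 and Ccl12 are ligands of the monocyte receptor CCR2. Ccl3 and its close relative Ccl4 attract macrophages and lymphocytes, and Ccl3, Ccl9 and Ccl6 share the receptor CCR1. Cxcl16 is made as a membrane protein, is shed by the protease ADAM10 and binds CXCR6. In the injured spinal cord, chemokines of microglia and neurons are known to act on neurons, glia and infiltrating leukocytes.

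Each library held 14223015 to 20239175 reads on genes. The sorted cells carried high levels of microglial transcripts in all 14 libraries, but 4 K/BxN ST libraries stood apart. In TASTPM K/BxN ST libraries 1 and 2 and WT K/BxN ST libraries 1 and 2, Ly6c2, which marks inflammatory monocytes, lay between 12898 and 29133 normalised counts, against 1.87 to 17.8 in the other 10. All 10 monocyte markers examined were higher in each of these 4 than in any other library, and their sum was 78353 to 152725 against 282 to 595. The sum of 10 microglia markers was 446040 to 939146 in the 4 and 1147930 to 1568930 in the other 10. The sum of the 11 neutrophil markers measured was 10338 to 223471 against 4061 to 11935, with Ngp at 50469 to 63729 in TASTPM K/BxN ST libraries 1 and 2 and WT K/BxN ST 1 but 32.8 in WT K/BxN ST 2. Border macrophage markers, led by F13a1, summed to 11717 to 36033 against 4.78 to 1945. The study's gate was set to leave out Ly6C+ and CCR2+ cells. The 4 libraries also shared a low Xist level (0 to 12.5) and a high Ddx3y level (633 to 917), whereas the other 10 were mixed, with both transcripts in WT Control ST 3 (1706 and 236), TASTPM Control ST 3 (202 and 1481) and, at a lower Xist level, WT Control ST 2 (45.3 and 1027). The part of these differences in the results was not tested, so values are given with and without the 4 libraries, which were set aside after their values were seen.

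All 7 genes lie on chromosome 11 of GRCm39. Ccl2 (81926397 to 81928279), Ccl7 (81936532 to 81938351) and Ccl12 (81992645 to 81994466) are on the plus strand, with 8.25 kb between Ccl2 and Ccl7. A second group holds Ccl9 (83463745 to 83473161, minus strand), Ccl6 (83478708 to 83483913, minus strand), Ccl3 (83538670 to 83540191, minus strand) and Ccl4 (83553383 to 83555509, plus strand). Ccl3 and Ccl4 are 13.2 kb apart and point away from each other, and Ccl9 and Ccl6 are 5.55 kb apart. Cxcl16 (70344517 to 70352620, minus strand) lies alone and shares 2213 exonic bases with Med11 and 2132 with Zmynd15 on the opposite strand. Ccl3 shares 276 exonic bases with the long non-coding RNA Gm53692 on the other strand. No source states strand-specific counting, so reads in these shared stretches cannot be assigned to 1 gene.

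The 120 bases before the transcript start are shown for Ccl3 and Ccl4 and for Ccl9 and Ccl6, the neighbouring pairs of genes whose levels are set against each other across libraries. They are written 5′ to 3′ on the strand of the gene, from GRCm39 and the canonical transcript of GENCODE M39, with matches to the motifs searched in capitals.
Ccl3 (chr11:83540192-83540311, minus strand): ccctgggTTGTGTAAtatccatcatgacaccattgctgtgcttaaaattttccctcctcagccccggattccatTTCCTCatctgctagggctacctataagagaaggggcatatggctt
Ccl4 (chr11:83553263-83553382, plus strand): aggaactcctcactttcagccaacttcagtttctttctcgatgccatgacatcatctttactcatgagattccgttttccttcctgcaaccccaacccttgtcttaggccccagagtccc
Ccl9 (chr11:83469468-83469587, minus strand): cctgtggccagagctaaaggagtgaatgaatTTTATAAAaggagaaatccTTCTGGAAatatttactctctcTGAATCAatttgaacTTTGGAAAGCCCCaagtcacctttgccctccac
Ccl6 (chr11:83483914-83484033, minus strand): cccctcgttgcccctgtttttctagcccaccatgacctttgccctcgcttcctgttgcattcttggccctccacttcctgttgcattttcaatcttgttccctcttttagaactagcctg

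The motifs, searched on both strands of the 200 bases before the start, were the kappaB consensus, the AP-1 motif TGANTCA, the C/EBP motif TTNNGNAA, the PU.1 core GAGGAA and the TATA motif TATAAA. Among 11526 protein-coding genes of the data they were found in 3.52%, 3.32%, 25.7%, 19.2% and 5.38% of windows, respectively. Ccl9 held a kappaB match from 30 to 21 bases upstream, which overlaps a TTNNGNAA match at 33 to 26, and also TGANTCA at 48 to 42, TTNNGNAA at 70 to 63 and TATAAA at 87 to 82, which on the opposite strand matched again at 89 to 84. Ccl3 held TTNNGNAA at 113 to 106 and GAGGAA at 46 to 41. The windows of Ccl4 and Ccl6 held none of these letter strings. The Ccl9 transcript used here starts inside the annotated gene, and a match describes the letters only.

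By the median over all libraries, Ccl6 was the most abundant of these transcripts and Ccl7 the least. Levels are compared between genes as normalised counts per kb of the canonical transcript, as medians of 14 libraries. Ccl6, an abundant neighbour that is not among the 8, had 4982 per kb, Ccl9 1652, Ccl12 1218, Ccl4 926, Cxcl16 727, Ccl3 499, Ccl2 101 and Ccl7 0. Ccl6 was above Ccl9 in 14 of 14 libraries and Ccl3 above Ccl2 in 13 of 14. In between, the order was not resolved beyond the spread between libraries, with Ccl9 above Ccl12 in 6 libraries, Ccl12 above Ccl4 in 11, Ccl4 above Cxcl16 in 8 and Cxcl16 above Ccl3 in 8. In WT Control ST the mean of Ccl4 (1255 ± 80.5 per kb) was above that of Ccl9 (1136 ± 727, SD, n = 3 each), and the median of Ccl9 includes the 4 Ly6c2-high libraries, where it was highest. Over the union of exons in place of the canonical transcript, Cxcl16 was at a median of 424 per kb, below Ccl3.

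**Figure D1:**
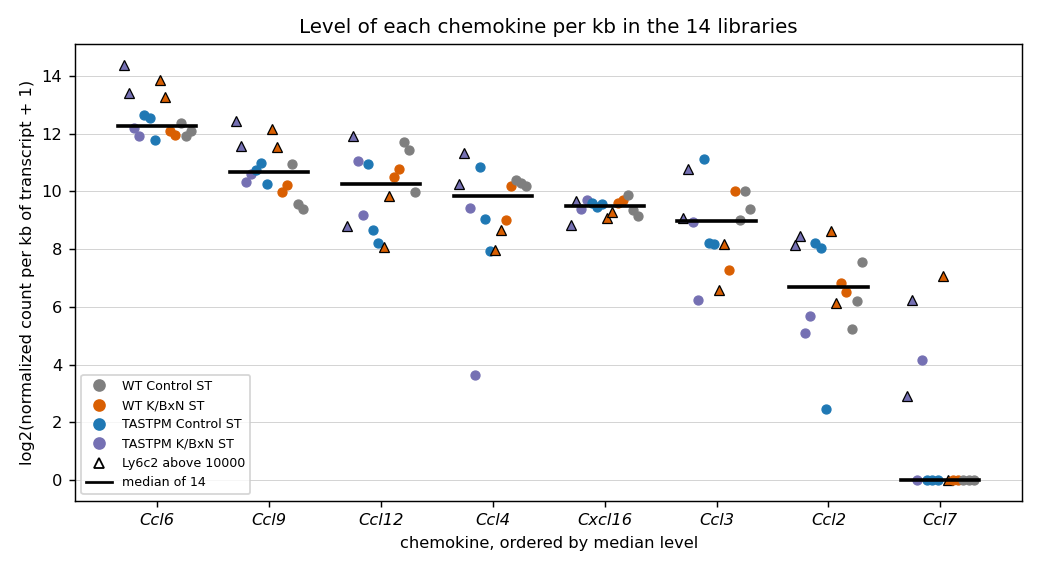
Normalised count per kb of canonical transcript, as log2 after adding 1, for the 7 chemokines and Ccl6 in each of the 14 libraries, coloured by group, with triangles for the 4 Ly6c2-high libraries and a bar at the median. Ccl6 has the highest median (4982 per kb), Ccl9 to Ccl3 overlap widely and Ccl7 is at 0 in 10 libraries.

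The first question was whether K/BxN ST changed chemokine transcripts in WT or TASTPM microglia. None of the 7 chemokines passed the test in either genotype. A call needed an adjusted p under 0.05 and a log2 fold change past 1 in either direction in limma, fitted on log2(normalised count + 1) over 12646 genes and all 14 libraries. In WT, 0 of 7 were called, where 0.00791% of all genes tested were called in that comparison. In TASTPM, 0 of 7 were called against 0.0% of all genes. At an unadjusted limma p below 0.05 the count of chemokines was also 0 in both genotypes, where 4.77% of all genes were higher and 2.36% lower in WT and 2.62% and 1.6% in TASTPM. The edgeR quasi-likelihood test called 0 of 7, and DESeq2 called Ccl7 in both genotypes, beside 1.86% of all genes called higher and 0.1% lower in WT, and 0.6% and 0.0286% in TASTPM. The median log2 fold change of the 7 was -0.05 in WT (all genes 0.06) and 0.57 in TASTPM (all genes 0.01), and without the 4 Ly6c2-high libraries it was 0.00 and -0.20. The study's methods give its replicates as individual mice, and whether the libraries with both Xist and Ddx3y each hold 1 mouse was not tested. As each library pools sorted cells, fewer cells of a type and less RNA per cell cannot be told apart.

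**Figure D2:**
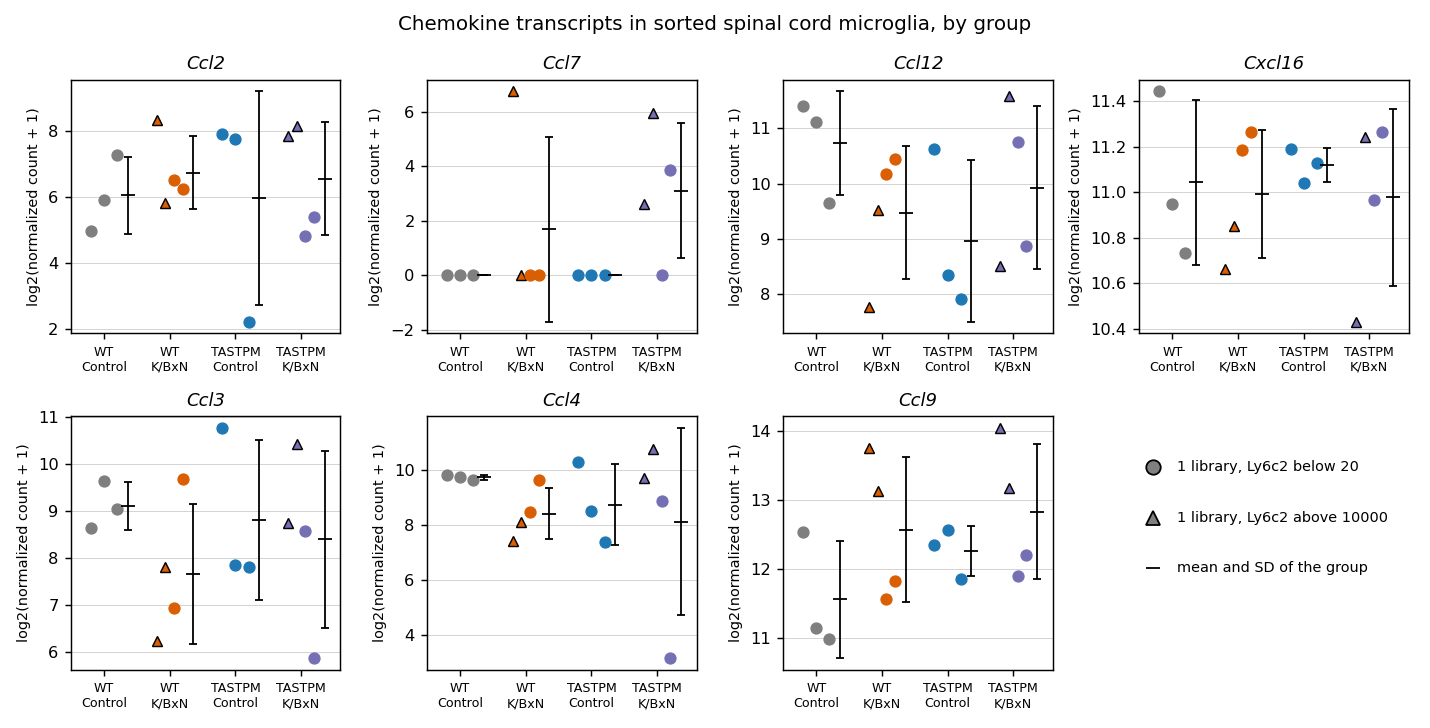
The 7 chemokines in each library, as log2(normalised count + 1), by group, with the mean and SD (n = 4 for K/BxN ST and 3 for Control ST) beside the points and triangles for the 4 Ly6c2-high libraries. The vertical axis differs between genes and does not start at 0. Ccl9 is highest in the 4 triangles (8956 to 16808 normalised counts), and the Ccl4 values of WT K/BxN ST lie below those of WT Control ST.

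Among the ligands of CCR2, Ccl2, the main attractant of inflammatory monocytes, varied more within groups than between them. Its normalised counts were 30.0, 59.5 and 154 in WT Control ST, against 323, 55.8, 90.8 and 74.1 in WT K/BxN ST. They were 242, 214 and 3.63 in TASTPM Control ST, against 232, 287, 27.0 and 40.6 in TASTPM K/BxN ST. The groups overlapped in both genotypes, with WT K/BxN ST 1 above all WT Control ST libraries and TASTPM Control ST 3 below every other library. The log2 fold change of Ccl2 was 0.68 (SE 1.28, limma adjusted p = 0.909) in WT and 0.59 (SE 1.28, limma adjusted p = 0.970) in TASTPM. In WT it was 0.33 without the 4 Ly6c2-high libraries, 0.14 without WT K/BxN ST 1 and 0.13 without WT Control ST 1. In TASTPM the sign turned without TASTPM Control ST 3 (-1.28) and without the 4 Ly6c2-high libraries (-0.87, SE 1.53).

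Ccl7, also known as MCP-3, was detected in 4 libraries only, all of them K/BxN ST. WT K/BxN ST 1 had 107 normalised counts of it, TASTPM K/BxN ST libraries 1, 2 and 4 had 5.20, 60.9 and 13.5, and the other 10 libraries were at 0, including all 6 Control ST libraries. These values rest on 118, 5, 64 and 12 reads. A count of 0 allows up to 3 reads, or 2.51 to 3.58 normalised counts depending on the library. Set against 3 reads in each Control ST library, the mean of K/BxN ST was at least 9.76-fold higher in WT, on 1 of 4 libraries, and at least 6.50-fold higher in TASTPM, on 3 of 4. With limma the log2 fold change of Ccl7 was 1.69 (SE 1.79, adjusted p = 0.823) in WT and 3.11 (SE 1.79, adjusted p = 0.964) in TASTPM. DESeq2 gave an adjusted p of 1.97e-06 in WT and 8.35e-06 in TASTPM, and edgeR 0.781 and 0.996. Without WT K/BxN ST 1, no read of Ccl7 remained in WT, and without TASTPM K/BxN ST 2 the mean of the other 3 was 6.25 normalised counts, 2.04 times the mean of the 3-read floors. Without the 4 Ly6c2-high libraries the limma log2 fold change was 1.93 in TASTPM, where 1 of the K/BxN ST libraries left had reads. Of the 4 libraries with reads, 3 are among the Ly6c2-high libraries.

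Ccl12, the mouse chemokine MCP-5, had a fitted change with K/BxN ST of opposite sign in WT and TASTPM, and neither passed the test. Its normalised counts were 2730.2, 2227 and 805 in WT Control ST, against 216, 732, 1151 and 1393 in WT K/BxN ST. In TASTPM they were 1579, 325 and 239 in Control ST, against 362, 3087, 1719.9 and 467 in K/BxN ST. WT K/BxN ST libraries 1 and 2 were below every WT Control ST library and WT K/BxN ST 3 and 4 lay within their range, while in TASTPM the groups overlapped. Its log2 fold change was -1.26 (SE 0.84, limma adjusted p = 0.765) in WT and 0.97 (SE 0.84, limma adjusted p = 0.964) in TASTPM. The difference between the 2 genotypes in this change was 2.23 on the log2 scale (SE 1.19, limma adjusted p = 0.999), and 1.27 without the 4 Ly6c2-high libraries. Without those 4 the log2 fold change was -0.42 in WT and 0.85 in TASTPM, and in WT it was -0.69 without WT K/BxN ST 1 alone. Without arthritis, the mean of Ccl12 was lower in TASTPM Control ST (mean 715 ± 750.2, SD, n = 3) than in WT Control ST (1921 ± 998, SD, n = 3), with a log2 difference of -1.77 (SE 0.90, limma adjusted p = 0.886).

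The related ligands Ccl3 (MIP-1α) and Ccl4 (MIP-1β), which microglia release early on activation, were lower on average in K/BxN ST than in Control ST of WT mice. Ccl4 had 919, 861 and 808 normalised counts in WT Control ST, against 173, 276, 352 and 803 in WT K/BxN ST. All 4 WT K/BxN ST libraries were below all 3 WT Control ST libraries, although the library WT K/BxN ST 4 lay close to WT Control ST 3. Ccl4 was the 1 chemokine of 7 whose WT groups did not overlap, where 3.71% of all genes tested were lower and 3.67% higher without overlap. The mean of Ccl4 was 401 ± 278 (SD, n = 4) in WT K/BxN ST and 862 ± 55.3 (SD, n = 3) in WT Control ST. In limma, the log2 fold change was -1.33 (SE 1.31, limma adjusted p = 0.813), whereas the two-sided exact permutation test over 35 splits gave p = 0.0571, where the smallest possible p is 0.0286. In all, 28 such exact tests were computed, 7 chemokines in 4 comparisons.

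In TASTPM, Ccl4 was 1279, 364 and 168 in Control ST, against 837, 1769, 469.9 and 7.90 in K/BxN ST. The groups overlapped fully, and none of the 7 chemokines separated them, where 2.67% of all genes were higher and 2.74% lower without overlap. The log2 fold change of Ccl4 was -0.61 (SE 1.31, limma adjusted p = 0.970), and it turned to 1.05 without TASTPM K/BxN ST 4, whose 7.90 normalised counts are 7 reads. The ratio of the group means of normalised counts was 1.28, above 1, where the log2 fold change over all libraries was negative.

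Ccl3 had 396, 795 and 524 normalised counts in WT Control ST, against 74.1, 222, 121 and 811 in WT K/BxN ST. WT K/BxN ST libraries 1, 2 and 3 were below all of WT Control ST and WT K/BxN ST 4 was above all of them. In TASTPM the values were 1731, 231 and 223 in Control ST, against 424, 1366, 378 and 57.5 in K/BxN ST, again overlapping. The log2 fold change of Ccl3 was -1.45 (SE 1.00, limma adjusted p = 0.774) in WT and -0.41 (SE 1.00, limma adjusted p = 0.976) in TASTPM, the second turning to 0.43 without TASTPM K/BxN ST 4 and to 0.57 without TASTPM Control ST 1. Without the 4 Ly6c2-high libraries, the log2 fold changes were -0.81 and -1.59 for Ccl3 and -0.69 and -2.73 for Ccl4, in WT and TASTPM respectively.

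Ccl3 and Ccl4 varied together from library to library. Over the 14 libraries, Pearson's r of the log2 values was 0.838 (permutation p = 1e-05, the smallest 100000 resamples can give, 8e-05 adjusted over 16 relations). Spearman's rho was 0.890 (permutation p = 9e-05). The r was 0.850 without the 2 libraries farthest from the median of Ccl3, 0.862 after subtracting group means and 0.842 without the 4 Ly6c2-high libraries. Ccl4 was also the gene most like Ccl3 among all genes that passed the filter. Of the other relations between 2 of the chemokines, Ccl4 and Ccl12 had r = 0.565 and rho = 0.758 (permutation p = 0.0217 and 0.00244, adjusted 0.0868 and 0.0130), and Ccl3 and Ccl12 had r = 0.660 and rho = 0.635 (permutation p = 0.0111 and 0.0162, adjusted 0.0593 and 0.0649). Ccl2 did not follow these 3, with r from 0.03 to 0.35.

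**Figure D3:**
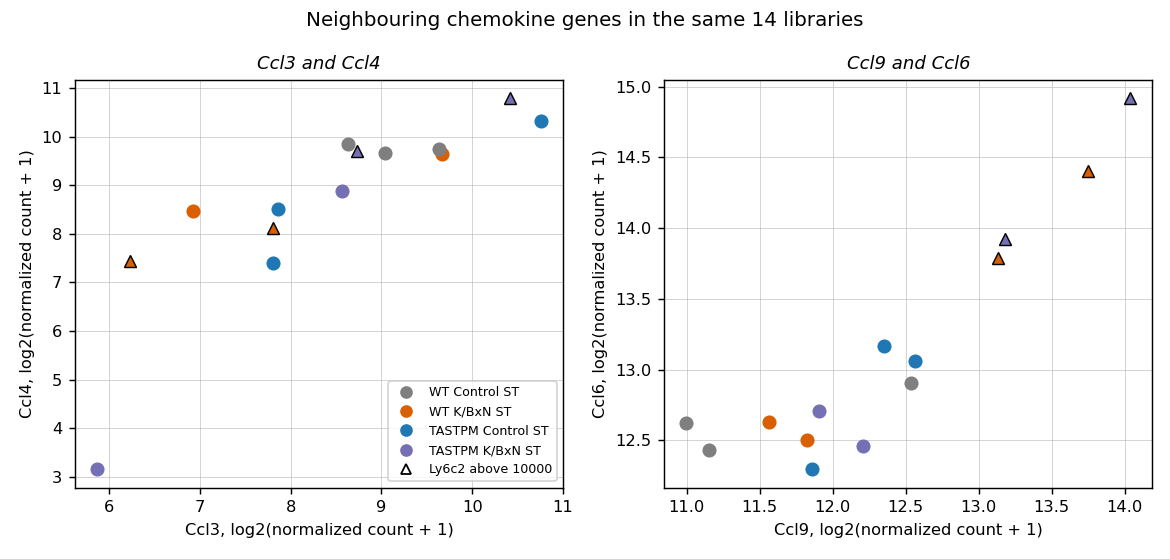
Ccl4 against Ccl3 (left) and Ccl6 against Ccl9 (right), each point 1 library, on axes of log2(normalised count + 1), coloured by group with triangles for the 4 Ly6c2-high libraries. Ccl3 and Ccl4 follow each other across all groups (r = 0.838), while Ccl9 and Ccl6 split into the 4 triangles and the other 10 libraries.

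Ccl9 (MIP-1γ), a ligand of CCR1 made by myeloid cells, was high in exactly the 4 Ly6c2-high libraries. It had 5945, 2274 and 2044 normalised counts in WT Control ST, against 13769, 8956, 3030.4 and 3622 in WT K/BxN ST. In TASTPM it had 5223, 6045 and 3713 in Control ST, against 16808, 9253, 3829 and 4727 in K/BxN ST. The 2 Ly6c2-high libraries of each genotype lay above all of its Control ST libraries and the other 2 within or near the control range. All 4 were above the other 10 libraries (8956 to 16808 against 2044 to 6045), a pattern that 7.63% of all genes tested share. The mean of Ccl9 was 2.15 times higher in WT K/BxN ST than in WT Control ST and 1.73 times higher in TASTPM K/BxN ST than in TASTPM Control ST. The log2 fold changes were 1.00 (SE 0.57, limma adjusted p = 0.734) and 0.57 (SE 0.57, limma adjusted p = 0.964). Without the 4 libraries they were 0.13 (SE 0.39) and -0.20 (SE 0.39).

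Ccl6, the neighbour of Ccl9, had the same 4 libraries on top, with 14150.2 to 30954 normalised counts against 5027 to 9186 in the other 10. Because Ccl9 falls into 2 clusters of libraries, its correlation with Ccl6 over all 14 is not given. Within the 10 libraries with little Ly6c2, r between Ccl9 and Ccl6 was 0.602 (permutation p = 0.0682), rho was 0.612 (permutation p = 0.0671) and r was 0.688 without the 2 libraries farthest from the median.

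Cxcl16 was the steadiest of the 7. Its normalised counts were 2786, 1978 and 1704 in WT Control ST, against 1621, 1849, 2328 and 2464 in WT K/BxN ST. In TASTPM they were 2337, 2107 and 2239.7 in Control ST, against 1381, 2426, 1999.5 and 2464 in K/BxN ST. The groups overlapped in both genotypes, and the lowest 2 of the 14 libraries were TASTPM K/BxN ST 1 and WT K/BxN ST 1. The fitted log2 fold change was -0.05 (SE 0.24, 95% interval -0.57 to 0.46, limma adjusted p = 0.968) in WT and -0.14 (SE 0.24, 95% interval -0.66 to 0.37, limma adjusted p = 0.969) in TASTPM. For Ccl3 in WT the same interval ran from -3.57 to 0.68 and for Ccl4 from -4.13 to 1.46, so that changes of several fold remained possible for these genes.

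**Figure D4:**
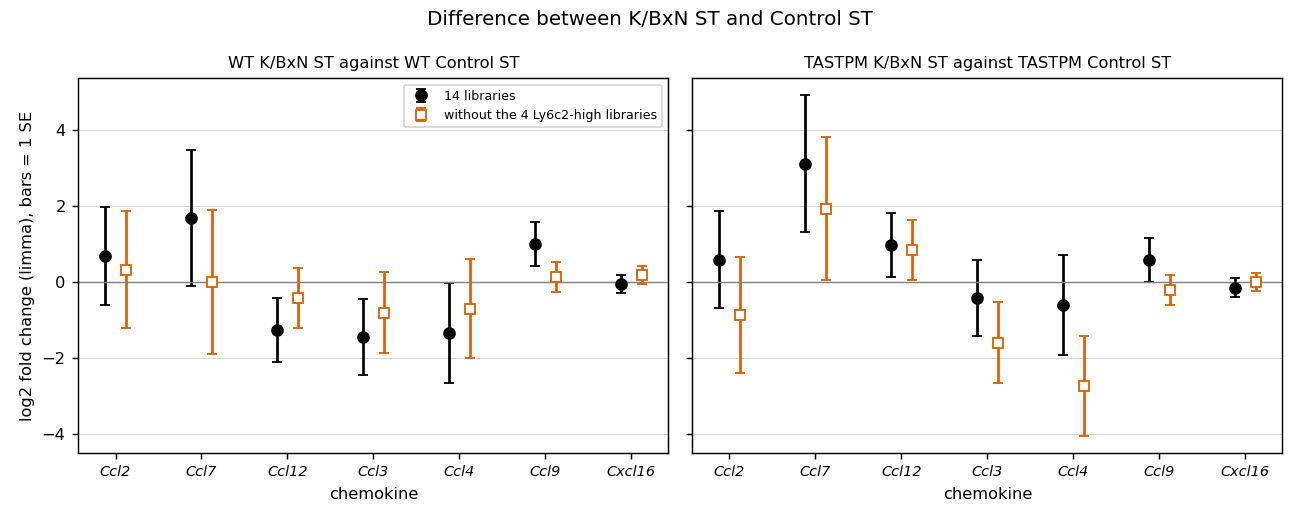
Log2 fold change of K/BxN ST against Control ST with 1 SE from limma for each chemokine, in WT (left) and TASTPM (right), with all 14 libraries (black) and without the 4 Ly6c2-high libraries (orange). Ccl9 is at 1.00 with and 0.13 without those libraries in WT, and at 0.57 and -0.20 in TASTPM, while Cxcl16 stays near 0.

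The second question was whether genotype changed the chemokines, at rest or in arthritis. Again 0 of 7 were called by limma, at an unadjusted p below 0.05 also 0, for TASTPM Control ST against WT Control ST, for TASTPM K/BxN ST against WT K/BxN ST and for the interaction, where 0.0% of all genes were called in each. At that unadjusted p, 3.41% of all genes were higher and 2.16% lower in TASTPM in the first comparison, 1.0% and 0.909% in the second and 1.42% and 1.63% for the interaction. DESeq2 and edgeR likewise called 0 of 7 in these 3 comparisons, where DESeq2 called 0.45% higher and 0.15% lower, 0.0% either way, and 0.0981% and 0.154%. Without the 4 Ly6c2-high libraries, which leaves the Control ST libraries as they are, 1 of 7 reached an unadjusted p below 0.05, Ccl12 in Control ST (log2 difference -1.77, SE 0.71, limma adjusted p = 0.788), where 3.38% of all genes were higher and 2.74% lower. Between the K/BxN ST groups, 0 of 7 did so without the 4, where 1.7% of all genes were higher and 2.26% lower. There Ccl4 differed by -3.04 (SE 1.43, limma adjusted p = 1), on 2 libraries a group that include the 7 reads of TASTPM K/BxN ST 4. With all libraries it differed by -0.28 (SE 1.21) in limma, but by 0.95 in edgeR and 0.94 in DESeq2. The ratio of its means, TASTPM to WT, was 1.92 (771 against 401 normalised counts). Mean levels of Ccl2 were 153 ± 130.5 in TASTPM Control ST and 81.1 ± 64.6 in WT Control ST (SD, n = 3 each), a ratio of 1.89, whereas the limma log2 difference was -0.086 (SE 1.37, adjusted p = 0.996) and that of edgeR 0.92. The direction for Ccl2, and that for Ccl4 between the K/BxN ST groups, therefore depends on the scale of the comparison. The sign also differed for Ccl3 between the Control ST groups (limma -0.29, edgeR 0.35). It did so for Ccl7 between the K/BxN ST groups (limma 1.42, edgeR -0.43). Mean levels of Cxcl16 were 2228 ± 115 and 2156 ± 563 (SD, n = 3 each), with a log2 difference of 0.077 (SE 0.26, limma adjusted p = 0.995).

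Receptors of chemokines were measured in the same libraries. Of 23 chemokine receptors listed, 12 were measured and 9 passed the filter, and 0 were called by limma in either genotype. At an unadjusted p below 0.05, Ccr1 was higher in TASTPM, as were 2.62% of all genes. The median log2 fold change was 1.12 in WT and -0.27 in TASTPM, and -0.42 and 0.17 without the 4 Ly6c2-high libraries. DESeq2 without the filter called Ccr2 in both genotypes and Cxcr4 in WT, where 1.86% of all genes were called higher in WT and 0.6% in TASTPM. Cxcr4 was not among the 9 receptors that passed the filter.

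Ccr1, the receptor of Ccl3, Ccl6 and Ccl9, had 894, 460.2 and 1486 normalised counts in WT Control ST, against 4618, 1859, 1737 and 1039 in WT K/BxN ST. In TASTPM it had 1034, 977 and 1078 in Control ST, against 9613, 4093, 2323 and 992 in K/BxN ST. In each genotype, 3 of 4 K/BxN ST libraries were above all Control ST libraries, 2 of them Ly6c2-high. Its log2 fold change was 1.22 (SE 0.63, limma adjusted p = 0.711) in WT and 1.58 (SE 0.63, limma adjusted p = 0.964) in TASTPM, and 0.66 and 0.56 without the 4 libraries. Ccr2, the receptor of Ccl2, Ccl7 and Ccl12 and itself among the monocyte markers, was at 8537 to 27035 in the 4 Ly6c2-high libraries and at 3.13 to 86.0 in the other 10. Cxcr2, the neutrophil receptor, was at 533 to 1198 in TASTPM K/BxN ST libraries 1 and 2 and WT K/BxN ST 1, and at most 1.87 elsewhere. Ackr2, a scavenger receptor for inflammatory CC chemokines, was at 0 in all 3 WT Control ST libraries. It was at 0, 15.9, 9.56 and 17.4 in WT K/BxN ST (log2 fold change 2.92, SE 1.43, limma adjusted p = 0.699). In TASTPM its log2 fold change had the opposite sign (-2.06, SE 1.43, limma adjusted p = 0.964). Between the Control ST groups it was higher in TASTPM (log2 difference 4.80, SE 1.53, limma adjusted p = 0.738).

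**Figure D5:**
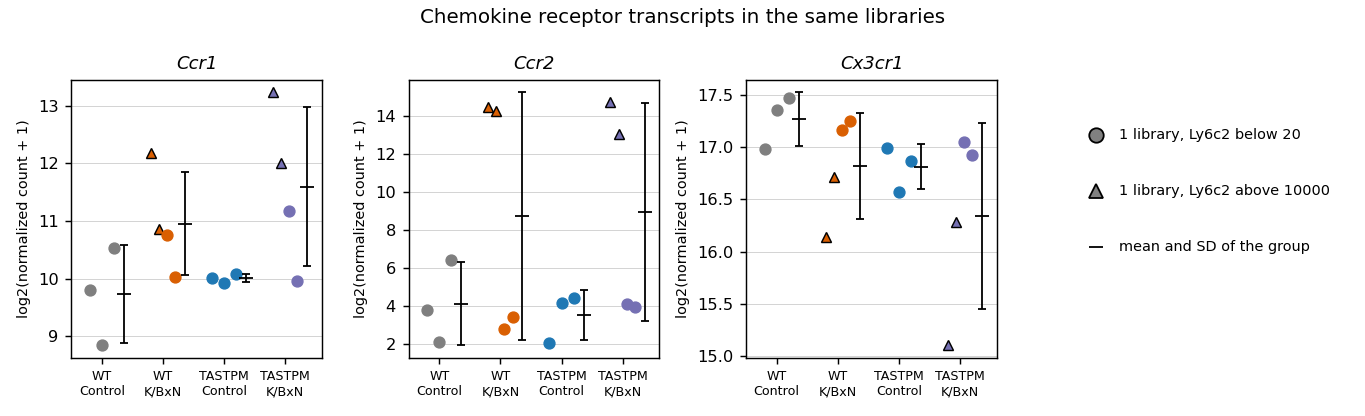
Ccr1, Ccr2 and Cx3cr1 in each library as log2(normalised count + 1), by group, with the mean and SD (n = 4 for K/BxN ST and 3 for Control ST) and triangles for the 4 Ly6c2-high libraries. The vertical axes differ and do not start at 0. Ccr2 is high only in the triangles (8537 to 27035 normalised counts).

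Other chemokines gave no call by limma either. Of 30 listed, 13 were measured and 8 passed the filter, with 0 called by limma in either genotype and a median log2 fold change of 0.83 in WT and 0.42 in TASTPM, or -0.16 and -0.48 without the 4 Ly6c2-high libraries. Ccl5, which attracts T cells and macrophages, had 0, 28.5 and 6.69 normalised counts in WT Control ST, against 120.1, 44.3, 28.7 and 63.2 in WT K/BxN ST. All 4 were above the controls, by a narrow margin for the lowest, as 3.67% of all genes were in WT. The log2 fold change of Ccl5 was 3.22 (SE 1.50, limma adjusted p = 0.698) in WT, and 2.84 without the 4 Ly6c2-high libraries. In TASTPM it was 0.17 (SE 1.50), and -1.61 without the 4. Cxcl10, an interferon-induced chemokine, had 153, 298 and 115 normalised counts in TASTPM Control ST, against 48.9, 125, 0 and 0 in TASTPM K/BxN ST. Its log2 fold change was -4.30 (SE 1.98, limma adjusted p = 0.964) in TASTPM, and -7.45 without the 4. In WT it was 1.40 (SE 1.98), and 0.92 without the 4. Cxcl17 was at 27.2 to 59.5 in WT Control ST and 5.97 to 28.9 in WT K/BxN ST (limma adjusted p = 0.757). Its log2 fold change was -1.45 in WT and -0.37 in TASTPM. DESeq2 called Cxcl9 in WT, where it called 1.86% of all genes higher. Cxcl9, which did not pass the filter, had 336.8 normalised counts in WT K/BxN ST 3 and 0 to 124.8 in the other 13 libraries.

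Signalling downstream of chemokine receptors was examined with 16 genes, all tested, of which 0 were called by limma and 0 reached an unadjusted p below 0.05 in either genotype. Rac2, a GTPase of the leukocyte cytoskeleton, was at 7339 to 13094 normalised counts in the 4 Ly6c2-high libraries. It was at 2807 to 5105 in the other 10, a pattern that 7.63% of all genes tested share. Its log2 fold change was 0.62 in WT and 1.01 in TASTPM (limma adjusted p = 0.787 and 0.964), and -0.09 and 0.17 without those 4. The exchange factor Vav1 had -0.34 and 0.0050 and the G protein subunit Gnb1 0.42 and 0.27, in WT and TASTPM. Without the 4 libraries Vav1 had -0.18 and 0.24 and Gnb1 0.11 and -0.098, a turn of sign for Gnb1 in TASTPM. Of 5 proteases that shed or trim chemokines, 3 were tested and 0 called by limma. Adam10, the sheddase of Cxcl16, had log2 fold changes of -0.34 and -0.29, Adam17 -0.41 and -0.28 and Mmp12 3.39 and 3.43 with an SE of 2.72, in WT and TASTPM. Without the 4 Ly6c2-high libraries the values were -0.11 and 0.25 for Adam10, -0.074 and 0.17 for Adam17 and 1.39 and 1.92 for Mmp12, so that the TASTPM signs of Adam10 and Adam17 turned. Dpp4, which trims the ends of chemokines, did not pass the filter. It had 175 to 1063 normalised counts in the 4 Ly6c2-high libraries and 0 in the other 10. DESeq2 called it in both genotypes, where 1.86% of all genes were called higher in WT and 0.6% in TASTPM.

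Transcription factors, inhibitors and cytokines of the NF-κB pathway, which drives many chemokine genes, gave 0 calls among 17 by limma, with 1 lower in WT and 1 higher and 1 lower in TASTPM at an unadjusted p below 0.05, where 2.36% of all genes were lower in WT and 2.62% were higher and 1.6% lower in TASTPM. Groups without overlap, as for Rel and Tnip1, were found for 2.67% (higher) and 2.74% (lower) of all genes in TASTPM. In WT, Icam1, an adhesion molecule named here after its values were seen, did not overlap either, with 5187, 5383 and 4553 normalised counts in Control ST against 2579, 3513, 3408 and 3864 in K/BxN ST (log2 fold change -0.61, SE 0.29, limma adjusted p = 0.699), where 3.71% of all genes were lower without overlap. In TASTPM, Rel, an NF-κB subunit, had 1057, 998 and 1141 normalised counts in Control ST, against 583, 666, 551 and 796 in K/BxN ST, with all 4 below the controls (log2 fold change -0.73, SE 0.24, limma adjusted p = 0.964). Tnip1, an inhibitor of NF-κB signalling, had 131, 162 and 98.1 in TASTPM Control ST, against 296, 224, 363 and 253 in TASTPM K/BxN ST, with all 4 above (log2 fold change 1.12, SE 0.49, limma adjusted p = 0.964). Il6 was at 416, 227 and 215 in WT Control ST, against 99.4, 54.0, 232 and 133 in WT K/BxN ST (log2 fold change -1.26, SE 0.58, limma adjusted p = 0.695). The direction of all 3 held without the 4 Ly6c2-high libraries (-0.68, 1.24 and -0.63). With all libraries, the log2 fold change in WT was 0.26 for Rel and 0.35 for Tnip1. In TASTPM it was -1.03 for Il6 and 0.062 for Icam1, so the sign differed between genotypes for Rel and Icam1.

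Immediate early genes, which respond within minutes to cell stimulation or handling and were read beside Ccl3 and Ccl4, gave 0 calls among 13 by limma. At an unadjusted p below 0.05, 2 were higher in each genotype (Klf2 and Egr1 in WT, Fos and Junb in TASTPM), where 4.77% of all genes were higher in WT and 2.62% in TASTPM. Egr1 had 0, 0.838 and 636 normalised counts in WT Control ST, against 287, 213, 47.8 and 401 in WT K/BxN ST, so that its groups overlapped (log2 fold change 4.14, SE 1.69, limma adjusted p = 0.684). The group means of Egr1 were 237 in WT K/BxN ST and 212 in WT Control ST, and DESeq2 gave a log2 fold change of 0.16 (adjusted p = 0.996), so its size depends on the scale of the comparison. Klf2 had 752, 634 and 678 normalised counts in WT Control ST, against 2469, 2062, 1175 and 1481 in WT K/BxN ST, all 4 above the controls, as 3.67% of all genes were. Its log2 fold change was 1.33 (SE 0.30, limma adjusted p = 0.372), 0.94 without the 4 Ly6c2-high libraries and -0.0018 in TASTPM (0.30 without the 4), and DESeq2 called it in WT, where it called 1.86% of all genes higher. Fos had 16.7, 16.7 and 0 in TASTPM Control ST, against 1697, 934, 51.7 and 161 in TASTPM K/BxN ST (log2 fold change 5.65, SE 2.27, limma adjusted p = 0.964). Junb had 2251, 2965 and 3116 in TASTPM Control ST, against 6113, 3522, 5847 and 3347 in TASTPM K/BxN ST (log2 fold change 0.72, SE 0.26, limma adjusted p = 0.964). Without the 4 libraries these were 3.77 for Fos and 0.69 for Junb. In WT, the log2 fold change was 2.76 (SE 2.27) for Fos and -0.11 (SE 0.26) for Junb, and -1.44 and -0.33 without the 4. That of Egr1 in TASTPM was 1.33 (SE 1.69), and 0.86 without the 4.

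For each chemokine that passed the filter, the 3 genes with the highest Pearson r over the 14 libraries were listed as a description. They were Eif3c (0.917), Pcbd2 (0.904) and Ndufa11 (0.870) for Ccl2, and Ccl4 (0.838), Gm18541 (0.833) and Tmed5 (0.810) for Ccl3. For Ccl4 they were Gk5 (0.842), Ccl3 (0.838) and Slf1 (0.792). By Spearman's rho, Ccl3 (0.890) was closer to Ccl4 than Gk5 (0.679) and Slf1 (0.398) were. Those of Ccl12 included Tgs1 (0.804) and Gpr84 (0.794). Cxcl16 was most like Yipf2 (0.890), Laptm4b (0.885) and Ptp4a3 (0.882). For Ccl9, which was highest in the 4 Ly6c2-high libraries, they were Esd (0.952), Hcst (0.947) and Rps6 (0.945), with r of 0.792, 0.803 and 0.775 over the other 10. These are the highest of 12644 values for each gene in a small number of libraries.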

How the data were processed

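Microglia (CD45low CD11b+ CX3CR1+) were sequenced by the authors with SMART-Seq v4 cDNA, aligned with HISAT2 2.1 to GRCm39 (Ensembl 104) and counted with featureCounts 1.5.2. The deposited values are a normalized signal, read counts scaled by a size factor of each library, and 100% of them were whole multiples of 1 read to within 0.01 read.

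Groups follow the sample labels and the group named above each column. Of 14336 entries, 7 repeats were left out. The 12645 genes reaching 10 reads in 7 or more of 14 libraries, and Ccl7, were fitted with limma 3.58.1 in R 4.3.3 on log2(value + 1), with 1 fit to the 4 groups and a variance trend. Benjamini-Hochberg adjustment was over all genes tested, and 3 reads were the floor. Scripts were tested on simulated data. edgeR 4.0.16 and DESeq2 1.42.0, on recovered reads, were alternatives, because the unit is not a raw count. Sets of other genes were named by a rule, the 3 with the smallest p in either K/BxN ST comparison and any gene called by limma, and genes most like a chemokine by the highest r. Members and lists were chosen with earlier results of these data known. Cxcl2 was not analysed here. Some genes of the lists are not reported here. The sequences are from GRCm39, and 14268 of 14329 genes matched GENCODE M39 by identifier.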

Additional observations from a re-analysis of the deposited data

Results flagged for a closer look

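Among 14 groups of 4 libraries (7 chemokines in both K/BxN ST groups), 2 held a library far from the other 3 by Dixon's criterion, under which the gap to the nearest library, as a share of the range, exceeds the 95% critical value. Chance gives about 1 such group in 20, a rate that does not apply to a gene at 0 in 3 of 4 libraries. Ccl2 was 323 normalised counts in WT K/BxN ST 1, against 55.8 to 90.8 in the other 3, with a gap of 0.869 of the range. Ccl7 was 107 in the same library and 0 in the other 3, where the gap is 1 by construction for any library with reads, so this shows only that 1 of 4 libraries had reads and is no test. This library held 23510 normalised counts of Ly6c2, and the part of that in either value was not tested.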

How the results depend on the processing

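No paired analysis was possible because the labels number the libraries without repeats across groups. The number of genes called in WT was 1 with limma, 0 with a pseudocount of 10, with the 2 groups fitted alone, with edgeR, with a monocyte and neutrophil marker covariate and without the 4 Ly6c2-high libraries (limma or edgeR), and 129, 275 and 33 with DESeq2 with the filter, without it and without the 4 libraries. In the same order DESeq2 called 17, 88 and 10 genes in TASTPM and 12, 36 and 20 for the interaction, where limma called 0. For TASTPM against WT in Control ST, limma called 0, or 1 with the covariate or without the 4 libraries, and DESeq2 41, 84 and 52. In K/BxN ST, DESeq2 without the 4 libraries called 25. The chemokine called by DESeq2, with or without the filter, was 1 in each genotype (Ccl7), with fitted log2 values of 21.1 to 21.8 that are no bound. Adding each omission of 1 library, the range of genes called was 0 to 17 in WT, 0 to 1 in TASTPM, 0 to 3 for the interaction and 0 to 11 between Control ST groups.

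No chemokine was called with limma or edgeR under any alternative, but the sign of several small differences turned. In WT, Cxcl16 became 0.0061 with library totals, 0.14 with the covariate, 0.18, 0.16 and 0.16 without the 4 libraries (limma, edgeR, DESeq2) and 0.48 with microglia-marker scaling. Ccl2 became -0.32 and Ccl7 -0.038 with the covariate, and Ccl9 -0.028 in edgeR and -0.034 in DESeq2 without the 4. In TASTPM, Ccl2 became -0.055 with edgeR, -0.063 and -0.064 with DESeq2 with and without the filter, -0.53 with the covariate and -0.87, -2.19 and -2.18 without the 4. Ccl4 became 0.36 with edgeR, 0.35 with DESeq2 (both filters) and 0.044 with microglia-marker scaling. Ccl9 became -0.34 with the covariate, -0.081 with Xist as covariate and -0.20, -0.24 and -0.22 without the 4. Cxcl16 became 0.066 with the covariate, 0.0021 with DESeq2 without the 4 and 0.51 with microglia-marker scaling, and Ccl3 0.24 with that scaling. That scaling moves the median of all genes to 0.58 in WT and 0.65 in TASTPM, so both Cxcl16 values stay below the median gene. The omission of single libraries gave -0.21 to 0.15 for Cxcl16 in WT and, in TASTPM, -0.24 to 0.039 for Cxcl16, -1.08 to 0.57 for Ccl3, -1.50 to 1.05 for Ccl4 and -1.28 to 1.57 for Ccl2. The cause of these changes was not tested. The omission of the 4 libraries and the microglia-marker scaling were chosen after seeing the data.

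Low counts limit Ccl7, with 199 reads in all, and 3 or 4 libraries a group limit every test, since a log2 SE near 1 leaves several-fold changes of Ccl2, Ccl3, Ccl4 and Ccl12 undetectable.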
